A study of Mus musculus with 24 samples.

Results

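The shared-early distal regions are stretches of open chromatin away from promoters that held an ATAC-seq peak in both classes of cortical pyramidal neuron around birth and no peak in either class from P21 on. ATAC-seq maps open chromatin with a transposase that inserts adapters where DNA is accessible. Peaks of 12 lists were merged into 85867 union regions, of which 71589 were distal, that is more than 1 kb from every annotated transcription start site (TSS). Members were chosen by peak calls: each had to be distal, to have peaks in 2 or more of the 4 early lists (E18.5 to P7) for Cux2 and likewise for Tle4, and to be missing from all 4 late lists (P21 and P48). The rule found 1746 regions, 2.44% of the distal regions and 2.03% of all regions.

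The study followed Cux2 CPNs, callosal projection neurons of upper cortical layers labelled in Cux2-CreERT2:Ai14 mice, and Tle4 CThPNs, corticothalamic projection neurons of the deepest layer labelled in Tle4-2A-CreERT2:Ai14 mice. The labels give the strain as C57BL/6 and the study's methods a mixed C57BL/6J background. All mice carried the Ai14 tdTomato reporter and were exposed to 4-hydroxytamoxifen through the pregnant mother, which switched on the inducible Cre before the first age. tdTomato-positive cells were sorted from somatosensory and motor cortex at 6 ages, the embryonic E18.5 and the postnatal days P1, P3, P7, P21 and P48, with 2 replicates for each class and age (24 samples), and each library pooled several animals of both sexes. Cre was driven from the Cux2 or the Tle4 locus, and the Cux2 line is known to label some interneurons as well. The study's methods used stronger papain digestion for the tissue of the late ages, so dissociation and age cannot be told apart. The authors merged the replicates of a group into 1 list, so no value here has a replicate error, and the spread is given across lists or as a counting interval. The lists do not give the number of reads behind a peak.

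Distal open regions include enhancers, short DNA elements at which transcription factors bind and from which they influence genes that may lie far away. Enhancer use changes as a neuron matures, because the set of factors that hold chromatin open changes. In cortical pyramidal neurons, proneural basic helix-loop-helix factors, SOX, POU and other homeodomain factors are known for early roles, and AP-1, a dimer of FOS and JUN proteins that bind TGANTCA, is known as a factor induced by neuronal activity that binds many enhancers of mature neurons.

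The sorted populations were checked by peaks within 1 kb of the start sites of marker genes. Of 7 pyramidal neuron markers, 5 had a promoter peak in at least 1 list, with a median of 4 lists, and Neurod6 had a peak in 11 of 12. The Cux2 promoter had peaks in 4 Cux2 lists and 0 Tle4 lists, and the Tle4 promoter had peaks in all 12 lists, so only the former separated the classes. Of 8 interneuron markers, 6 had a promoter peak in some list, all in Cux2 lists and all early, and Dlx5 reached 3 lists. Of 8 glial and progenitor markers, 4 had one, with Gfap in 5 lists. None of 5 microglial and vessel markers had a promoter peak in any list. The part of these other cell types in the member regions was not tested.

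The sequences of 7 members are shown first because the results below turn on which short motifs they hold. Each is the 300 bp around the summit of the strongest peak of a member, on the plus strand of NCBIM37 (mm9), with every match to the 23 motifs searched in capitals. The first pair are the members of highest rank by fold enrichment, and the other windows lie near named neuronal genes, that of Nhlh1 chosen after its values were seen.
chr1:164545728-164546027, nearest to Gm5705: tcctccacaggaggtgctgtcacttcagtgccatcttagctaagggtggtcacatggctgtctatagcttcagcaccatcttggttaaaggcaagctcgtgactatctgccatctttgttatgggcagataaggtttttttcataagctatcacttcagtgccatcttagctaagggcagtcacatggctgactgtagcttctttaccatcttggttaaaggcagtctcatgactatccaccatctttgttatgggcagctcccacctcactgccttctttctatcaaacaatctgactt
chr12:28630340-28630639, nearest to Dcdc2c: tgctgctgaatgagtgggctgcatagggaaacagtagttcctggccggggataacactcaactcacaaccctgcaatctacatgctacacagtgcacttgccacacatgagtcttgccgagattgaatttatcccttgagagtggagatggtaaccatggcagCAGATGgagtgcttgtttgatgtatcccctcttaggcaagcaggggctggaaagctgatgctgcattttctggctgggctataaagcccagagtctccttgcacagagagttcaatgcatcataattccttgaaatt
chr13:28949100-28949399, nearest to Sox4: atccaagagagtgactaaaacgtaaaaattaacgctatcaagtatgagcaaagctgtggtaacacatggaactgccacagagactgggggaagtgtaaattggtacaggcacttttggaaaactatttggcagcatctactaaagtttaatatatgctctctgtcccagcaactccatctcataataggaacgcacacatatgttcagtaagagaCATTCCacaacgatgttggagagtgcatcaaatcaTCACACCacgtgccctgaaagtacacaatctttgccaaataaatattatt
chr19:14755849-14756148, nearest to Tle4: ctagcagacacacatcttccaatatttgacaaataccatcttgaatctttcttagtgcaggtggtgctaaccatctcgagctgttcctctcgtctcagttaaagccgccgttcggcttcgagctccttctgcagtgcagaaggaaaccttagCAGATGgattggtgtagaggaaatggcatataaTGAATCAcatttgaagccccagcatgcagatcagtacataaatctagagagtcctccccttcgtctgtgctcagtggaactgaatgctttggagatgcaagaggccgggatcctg
chr16:42269416-42269715, in an intron of Gap43: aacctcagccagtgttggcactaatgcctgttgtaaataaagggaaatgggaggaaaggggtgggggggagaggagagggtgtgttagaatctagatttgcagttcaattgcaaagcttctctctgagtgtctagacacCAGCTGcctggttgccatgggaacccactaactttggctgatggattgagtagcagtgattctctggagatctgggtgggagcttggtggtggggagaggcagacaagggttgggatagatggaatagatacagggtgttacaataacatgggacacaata
chr14:66996864-66997163, nearest to Stmn4: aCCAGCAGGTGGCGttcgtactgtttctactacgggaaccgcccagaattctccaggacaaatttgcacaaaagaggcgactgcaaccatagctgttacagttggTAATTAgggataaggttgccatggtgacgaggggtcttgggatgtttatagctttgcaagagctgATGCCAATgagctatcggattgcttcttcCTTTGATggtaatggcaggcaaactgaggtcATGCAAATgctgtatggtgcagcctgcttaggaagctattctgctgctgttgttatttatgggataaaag
chr1:173977090-173977389, nearest to Nhlh1: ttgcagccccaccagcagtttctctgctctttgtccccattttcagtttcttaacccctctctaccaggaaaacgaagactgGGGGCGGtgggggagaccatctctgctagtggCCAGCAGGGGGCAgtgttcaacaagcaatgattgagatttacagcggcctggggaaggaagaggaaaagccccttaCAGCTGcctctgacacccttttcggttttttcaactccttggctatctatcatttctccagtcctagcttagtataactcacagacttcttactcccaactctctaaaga

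The Gm5705 window held no searched motif, and parts of its sequence recur within it. The repeat content of members was not assessed. The Dcdc2c window held a NEUROD/NEUROG E-box (CAGATG), the site of proneural factors. The Sox4 window held a TEAD site (GGAATG) and a T-box site (GGTGTGA), and the Tle4 window an E-box and an AP-1 site (TGANTCA). The Gap43 window held an ASCL/TCF E-box (CAGCTG) near its summit. The Stmn4 window held 5 sites, among them a homeobox site (TAATTA), a pair of POU octamers (ATGCNAAT), a LEF/TCF site (ATCAAAG) and a CTCF site at its edge. The Nhlh1 window held a CTCF site close to the summit, beside an SP/KLF site (GGGGCGG) and an ASCL/TCF E-box. Letters are given for either strand. A match to these letters is a description and does not show that a factor is bound.

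By list, members numbered 1492, 1256, 1509 and 1238 in Cux2 CPNs from E18.5 through P7, and 1417, 1449, 1559 and 910 in Tle4 CThPNs at the same ages. P3 held the most members in both classes, and the Tle4 list at P7 held the fewest. Relative to the distal regions of each list, the share of members was 6.5%, 9.95%, 7.85% and 6.1% in the Cux2 lists and 11.6%, 12.3%, 11.3% and 9.72% in the Tle4 lists. The Tle4 lists were shorter, with 15186 to 22441 peaks against 21751 to 33991 in the early Cux2 lists. These counts were fixed in part by the rule, which asks for 2 or more early lists per class.

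**Figure D1:**
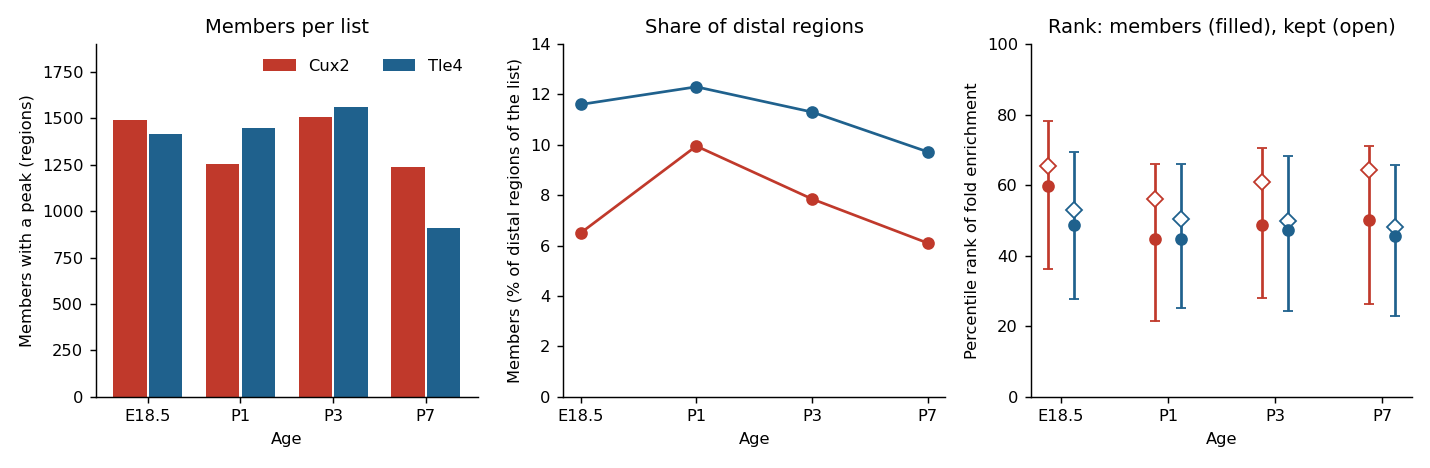
The left panel gives the number of members with a peak in each early list (bars, Cux2 red, Tle4 blue), the middle panel members as a percentage of the distal regions of the list, and the right panel the percentile rank of fold enrichment (filled circles, median of members with interquartile range; open diamonds, median of shared-early distal regions with a late peak). The Tle4 list at P7 holds 910 members, fewer than the other lists, and in every early list the median rank of members lies below that of the regions with a late peak.

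Most members were present in more lists than the rule asked for. All 8 early lists held 301 members (17.2%), 7 lists held 415 (23.8%), 6 held 523 (30.0%), 5 held 351 (20.1%), and 156 (8.93%) sat at the minimum of 4. In Cux2 CPNs the commonest pattern was presence at all 4 early ages, with 738 members (42.3%). In Tle4 CThPNs 592 members (33.9%) were present at all 4 ages, and a further 486 (27.8%) were present at E18.5, P1 and P3 and had no peak at P7. At E18.5 both classes had a peak at 1270 members (72.7%). By P7 this held for 721 (41.3%), 706 (40.4%) had a P7 peak in a single class, and 319 (18.3%) had none in either class.

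Members were of middling strength within their lists. Fold enrichment is the height of a peak at its summit over local background, as a ratio given by the authors' peak caller, and ranks are percentiles within a list. The median fold enrichment of members was 8.75 to 10.4 by list, and the median percentile rank was 44.6 to 59.7. Shared-early distal regions that also had a late peak (4789 regions) had higher median ranks in 8 of 8 early lists. The gap was widest in Cux2 CPNs at P7, at 50.0 against 64.2, and narrowest in Tle4 CThPNs at P3, at 47.3 against 49.9. Members spanned a median of 872 bp (interquartile range 675 to 1089), against 975 bp for the regions with a late peak and 624 bp for all distal regions.

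Absence from the late lists was not evenly informative across the classes. Of the distal regions, 6535 met the early condition in both classes, and 26.7% of these had no late peak and so were members. At promoters, within 1 kb of a TSS, the same early presence was followed by late absence at 875 of 7695 regions (11.4%), and over promoters and distal regions together at 18.4%. Among the 6535 distal regions, 59.5% had a peak in Cux2 CPNs at P21 and 65.3% at P48, against 18.8% and 31.8% in Tle4 CThPNs, whose late lists were short. Judged on the Cux2 late lists alone the rule gave 1882 regions, and judged on the Tle4 late lists alone it gave 4257, a pair of counts added after the data were seen. A peak missing from a list cannot be told apart from a peak below the list's threshold, and fewer open cells cannot be told apart from less open chromatin in each cell.

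The thresholds of the rule divided regions that lay close together. Just outside it, 996 shared-early distal regions had a peak in exactly 1 late list, which was Cux2 P48 for 586, Cux2 P21 for 299, Tle4 P48 for 90 and Tle4 P21 for 21. A further 1716 distal regions without a late peak met the early condition in a single class and had 1 early list in the other. By distance, 17 members lay within 200 bp beyond the 1-kb limit, and 22 regions within 200 bp inside it were left out as promoters.

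Members had late peaks near them as often as other distal regions without a late peak did. The nearest late peak was a median of 15018.5 bp away (interquartile range 5986 to 35877 bp), and 83.3% of members had a late peak within 50 kb, against 82.0% of the other 26843 distal regions without a late peak, whose median was 15805 bp, while 4.12% had a late peak within 1 kb. Distances to the nearest peak were longer for the shorter lists, with medians of 17981 bp for Cux2 P48 and 133197 bp for Tle4 P21. The nearest other member was a median of 416639 bp away, and 11.3% of members had another member within 50 kb. No background was computed for this distance.

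Members were mainly intergenic. By position, 57.4% (95% Wilson interval 55.1 to 59.7) lay between genes, 35.9% (33.7 to 38.2) in introns and 6.64% (5.57 to 7.91) on exons. Shared-early distal regions with a late peak were intergenic as often, at 57.7% (56.3 to 59.1), and the 596 distal regions present in all 12 lists at 61.4% (57.4 to 65.2). All distal regions were less often intergenic, at 51.8%, and shared-late distal regions, which had a peak in all 4 late lists and in no early list (577 regions), were less often intergenic still, at 44.4% (40.4 to 48.4), and more often intronic, at 46.8%. The median distance to a TSS was 30046.5 bp for members, 24535 bp for shared-early distal regions with a late peak, 25791 bp for shared-late distal regions and 28826 bp for all distal regions. By chromosome, members made up 1.64% (chromosome 19) to 3.21% (chromosome 17) of the distal regions of the autosomes and 1.96% of those of chromosome X, and 1 member lay on Y. These intervals cover counting error only, and regions are not replicates.

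In percentage points, AP-1 was the motif of the 23 searched whose share differed most between members and shared-late regions. The 7 letters TGANTCA, searched on both strands in the 300 bp around the summit, occurred in 111 of 1746 members, 6.36% (5.31 to 7.6). They occurred in 10.8% of shared-early distal regions with a late peak, in 18.3% of all distal regions and in 42.1% (38.2 to 46.2) of shared-late distal regions. The canonical forms TGACTCA and TGAGTCA were in 2.81% of members and 35.0% of shared-late regions, while the forms TGAATCA and TGATTCA were in 3.67% and 12.5%. The difference between these sets of regions was described, not tested.

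The AP-1 share was higher at each step in the number of late lists that held a shared-early distal region. It was 6.36% in members, which had 0 late lists, 8.33% (6.77 to 10.2) with 1, 9.84% (8.57 to 11.3) with 2, 11.4% (9.58 to 13.5) with 3 and 14.8% (12.7 to 17.3) with 4. The intervals of neighbouring steps overlapped, and those of members and of regions with 2 or more late lists did not. The homeobox letters TAATTA ran the other way between the ends, in 9.85% of members and 5.62% of regions with 4 late lists, but the steps between were not in order and all distal regions had 8.6%. CTCF sites, at which the insulator protein of that name binds, were in 5.1% (4.16 to 6.23) of members, in 6.89% to 9.09% of regions with 1 to 4 late lists and in 2.8% of all distal regions. With the same number of strongest peaks in every list, the CTCF share was 2.54% of members and 2.14% of all distal regions. The NEUROD/NEUROG E-box showed no order, with 29.6% in members, 35.3% with 2 late lists, 27.8% with 4 and 34.6% in all distal regions. Windows were centred on the strongest peak of any list, which could be a late one only in regions with late peaks. The part of this placement in the steps was not tested.

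**Figure D2:**
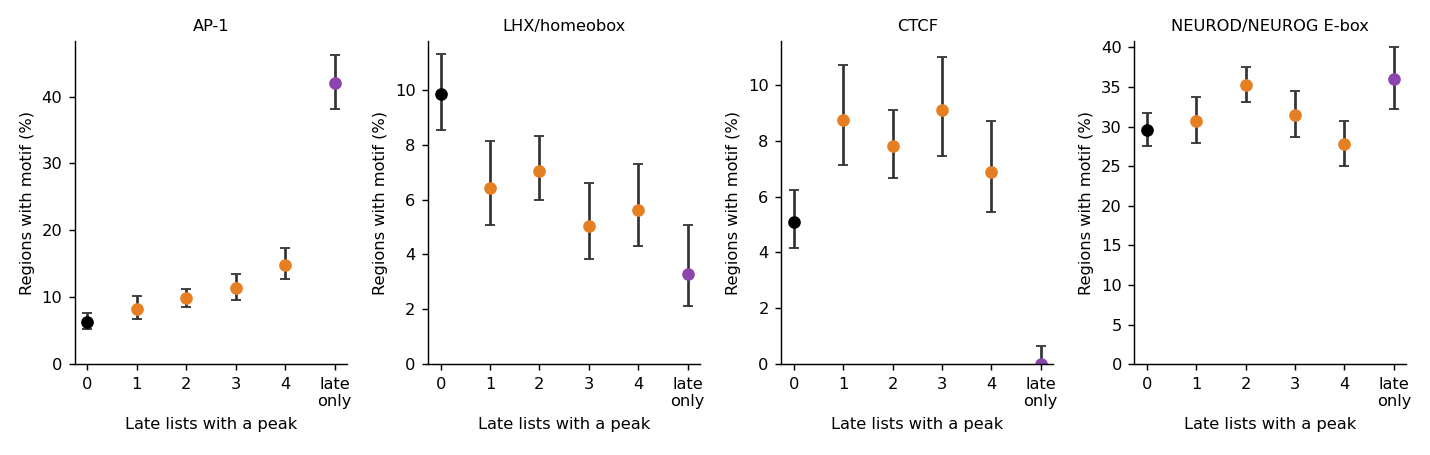
Each panel gives the percentage of regions with a motif in the 300 bp around the summit (points) with 95% Wilson intervals (bars), for shared-early distal regions by the number of late lists with a peak (0, members, black; 1 to 4, orange) and for shared-late distal regions (late only, purple). The AP-1 share goes from 6.36% in members to 14.8% with 4 late lists and 42.1% in shared-late regions, and the CTCF share is 0.0% in shared-late regions.

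The density of AP-1 letters at the summit was also compared with that in the flanks of the same regions. In the central part, within 100 bp of the summit, members held 0.226 AP-1 sites per kb (exact Poisson interval 0.179 to 0.282), against 0.321 (0.28 to 0.366) in their flanks 300 to 500 bp away. These intervals just overlapped. Shared-early distal regions with a late peak held 0.441 per kb (0.4 to 0.485) at the centre and 0.334 (0.308 to 0.36) in the flanks. Shared-late distal regions held 2.53 per kb at the centre against 0.347 in the flanks, a ratio of 7.3. Between members and shared-late regions the intervals of the flanks overlapped, and those of the centres did not.

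Several other motifs were denser at the summits of members than in their flanks, as they were in distal regions at large. The NEUROD/NEUROG E-box reached 1.29 sites per kb (1.18 to 1.42) at the centre against 0.809 (0.744 to 0.879) in the flanks, a ratio of 1.6, and the ratio was 1.88 in shared-late regions and 1.97 in all distal regions. CTCF had 86 sites at the centre and 8 in the larger flanks of the members, a density ratio of 21.5, against 37.6 in all distal regions. In shared-late distal regions no CTCF site was found at the centre in 577 regions. POU octamers reached 0.295 per kb (0.241 to 0.358) at the centre of members against 0.189 (0.158 to 0.224) in the flanks, and 0.104 (0.0537 to 0.182) at the centre of shared-late regions. The POU ratio was 1.56 in members and 1.89 in all distal regions. SP/KLF sites, which GC-rich elements often hold, were 0.198 per kb at the centre and 0.0859 in the flanks.

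Some motifs were sparse at the summits of members. SOX letters (AACAATG) were found at 0.0515 per kb (0.0305 to 0.0815) at the centre against 0.208 (0.175 to 0.244) in the flanks, and at 0.142 against 0.192 in all distal regions. The nuclear receptor letters AAGGTCA were at 0.0286 per kb against 0.183. Homeobox letters were at 0.332 per kb (0.274 to 0.398) at the centre of members and 0.405 (0.359 to 0.455) in the flanks, with overlapping intervals. All distal regions were alike, at 0.317 against 0.39. In shared-late regions the centre held 0.078 homeobox sites per kb (0.0357 to 0.148) against 0.377. The nuclear receptor letters had a like central dip in all distal regions, at 0.032 per kb against 0.197.

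**Figure D3:**
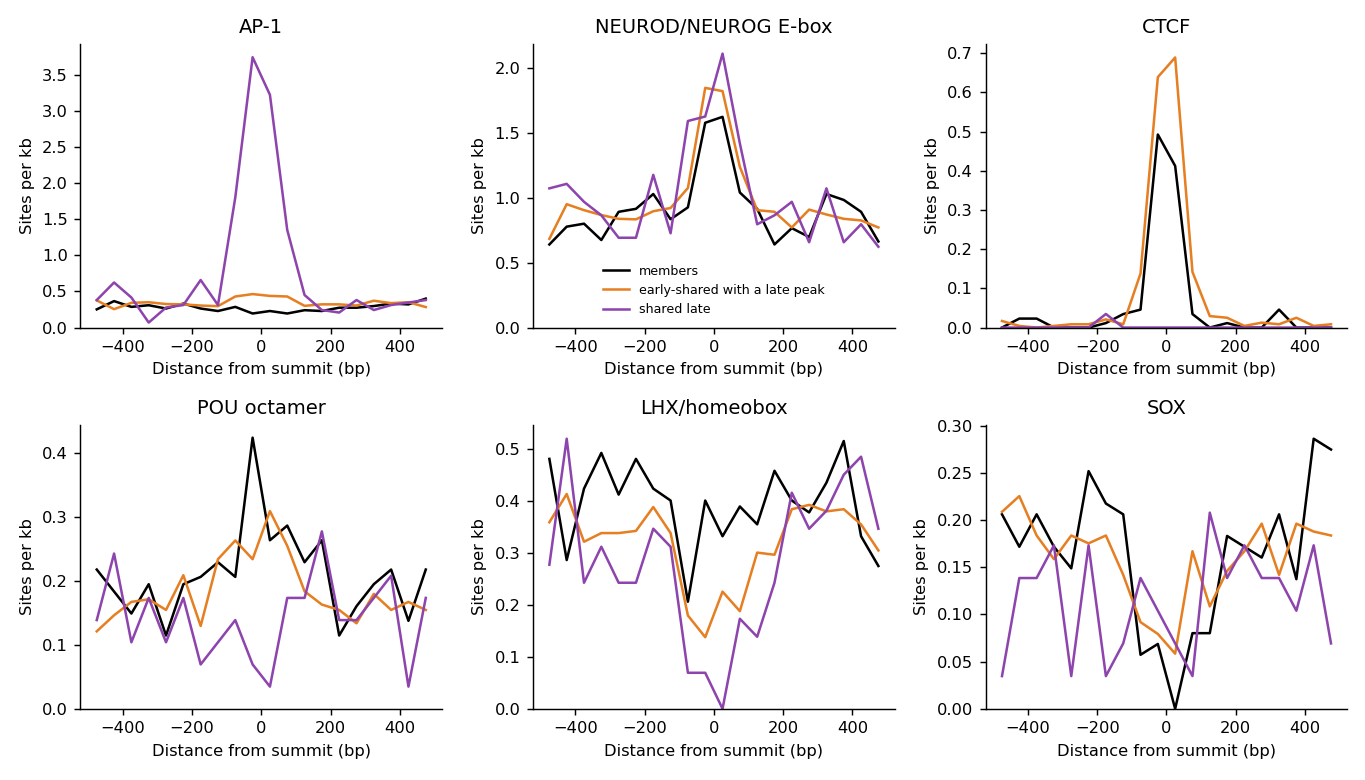
Sites per kb in 50-bp bins (vertical axis) against distance from the summit in bp (horizontal axis) for 6 motifs, in members (black), shared-early distal regions with a late peak (orange) and shared-late distal regions (purple). AP-1 has no central peak in members and peaks at the summit of shared-late regions (2.53 per kb within 100 bp), while E-box and CTCF sites peak at the summits of members.

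The base composition of members was close to that of other distal regions and far from that of promoters. The median GC content of the 300-bp windows was 43.7% , against 44.3% for all distal regions, 47.0% for shared-late distal regions and 65.7% for the 875 shared-early promoter regions without a late peak. The median CpG ratio, observed over expected, was 0.26 in members, 0.21 in all distal regions, 0.19 in shared-late distal regions and 0.83 in those promoter regions. A small group of 87 members (4.98%) had CpG-rich windows, with GC above 50% and a CpG ratio above 0.6. The share was higher in shared-early distal regions with a late peak, at 6.35% (5.69 to 7.07), and in distal regions of all 12 lists, at 13.8%. It was highest in the promoter regions, where 656 of the 875 had CpG-rich windows. It was lower in all distal regions, at 1.56%, and in shared-late distal regions, at 0.347%. This group was formed after the data were seen. These 87 members held SP/KLF sites in 28.7% and EGR sites (GCGNGGGCG) in 16.1%, and the NEUROD/NEUROG E-box in 10.3%, against 29.6% of all members. CpG-rich windows were in 10.9% of members 1 to 10 kb from a TSS and in 0.587% of those over 100 kb away.

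Among the members, the AP-1 share was similar across patterns of presence, and some other motifs differed. The AP-1 share was 6.8% (5.18 to 8.87) in the 721 members with a P7 peak in both classes and 6.58% (4.35 to 9.85) in the 319 with none at P7. POU octamers were in 43 of the former (4.46% to 7.94%) and 35 of the latter (8.0% to 14.9%), and CRE letters (TGACGTNA), the site of CREB and ATF factors, in 2.64% (1.69 to 4.08) and 0.0% (0 to 1.19), with intervals that did not overlap. POU and CRE are named from 23 motifs searched, and the intervals take no account of that choice. Regions are not replicates, so this is a description and not a test. The P7 groups depend on the short Tle4 P7 list (15186 peaks). The AP-1 share was 6.64% in the members above the median rank and 6.07% in the rest. By place, the AP-1 share was 1.72% (0.474 to 6.07) on exons, 5.9% in introns and 7.18% between genes, with overlapping intervals. CTCF sites were in 7.99% of members 1 to 10 kb from a TSS and in 1.47% of those over 100 kb away.

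Whether the same sequence differences separate early from late chromatin outside the members was tested on the distal peaks that did not belong to members, with the list as the unit. Shares were averaged over the classes as late minus early, and p-values came from a two-sided exact permutation test in which stage labels were rearranged among the lists of a class in every possible way, with Benjamini-Hochberg adjustment over 25 features. The smallest possible p was 0.00444. Of the 25 features, 10 passed an adjusted p of 0.05 (40.0%), 3 higher and 7 lower in late lists, and 12 had an unadjusted p under 0.05. The lists of a class at different ages share regions, so they are not independent.

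AP-1 letters were in 9.93% to 10.8% of the other distal peaks of the 8 early lists and in 23.2% to 26.7% of those of the 4 late lists, so the groups did not overlap. The mean rose from 10.3% ± 0.33 (SD, n = 8 lists) to 24.7% ± 1.64 (SD, n = 4 lists), a difference of 14.4 percentage points (exact permutation p = 0.00444, adjusted p = 0.0185). The difference was 15.8 points in Cux2 CPNs and 12.97 points in Tle4 CThPNs. Without the Cux2 P21, Cux2 P48 or Tle4 P48 list, the exact permutation test gave an adjusted p of up to 0.0667 and the AP-1 call was lost. With a late list left out this test cannot give an unadjusted p below 0.0133, so the lost call says little about AP-1. The difference itself stayed between 13.98 and 14.7 points with a list left out. Member peaks in the early lists held AP-1 letters in 6.01% to 6.99%, below the other distal peaks of the same list in 8 of 8 lists. These members are the same regions seen in several lists, so this count carries no test.

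Homeobox and POU letters moved the opposite way. The homeobox letters fell by 3.5 points, from a mean of 8.83% to 5.34%, and the POU octamer by 2.37 points, from 7.45% to 5.08% (adjusted p = 0.0185 for each, exact permutation test). Unlike AP-1, early and late ranges overlapped. They were 5.84% to 13.3% against 4.45% to 6.51% for homeobox letters, and 5.85% to 9.47% against 3.64% to 6.37% for POU octamers. Homeobox shares were already lower at P7 than at E18.5, at 9.07% against 13.3% in Cux2 CPNs and 5.84% against 7.95% in Tle4 CThPNs. Forkhead letters (GTAAACA) fell by 1.55 points and LEF/TCF letters by 0.66 points (adjusted p = 0.0185 for each, exact permutation test). MEF2 sites fell by 2.66 points (adjusted p = 0.0247), and MEIS letters (TTGACAG) by 1.07 points (adjusted p = 0.0333, exact permutation tests). T-box letters rose by 1.33 points, from 3.99% to 5.31% (adjusted p = 0.0247, exact permutation test). The T-box difference was 2.31 points in Cux2 CPNs against 0.34 in Tle4 CThPNs, and MEIS differed by -1.95 against -0.18. Homeobox letters differed by -5.38 points in Cux2 CPNs against -1.61 in Tle4 CThPNs, and MEF2 sites by -0.997 against -4.33. The MEIS call was lost in 11 of 12 fits with a list left out and in 4 other alternatives.

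Base composition shifted with stage as well. Median GC content of the other distal peaks was 43.7% to 44.7% in early lists and 44.7% to 47.0% in late lists, the ranges meeting at 44.7% (Tle4 P3 and Cux2 P21), a difference of 2.08 points (adjusted p = 0.0185), and the CpG ratio fell by 0.025 (adjusted p = 0.0247, exact permutation tests), with -0.0455 in Cux2 CPNs and -0.0036 in Tle4 CThPNs. The NEUROD/NEUROG E-box differed by 1.93 points (adjusted p = 0.209) and CTCF by -1.99 points (adjusted p = 0.0505), neither past the threshold in this exact permutation test. Member peaks had a lower median GC content than other distal peaks in 8 of 8 early lists. Their E-box share was also lower in 8 of 8. EGR letters were more frequent in member peaks in 8 of 8, but only 16 of 1746 members (0.916%) held them. Of these 16, 14 had CpG-rich windows. The EGR share was similar in shared-early distal regions with a late peak, at 0.898%, and was 0.323% in all distal regions. Members are the same regions seen in several lists, so these counts of lists carry no test.

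**Figure D4:**
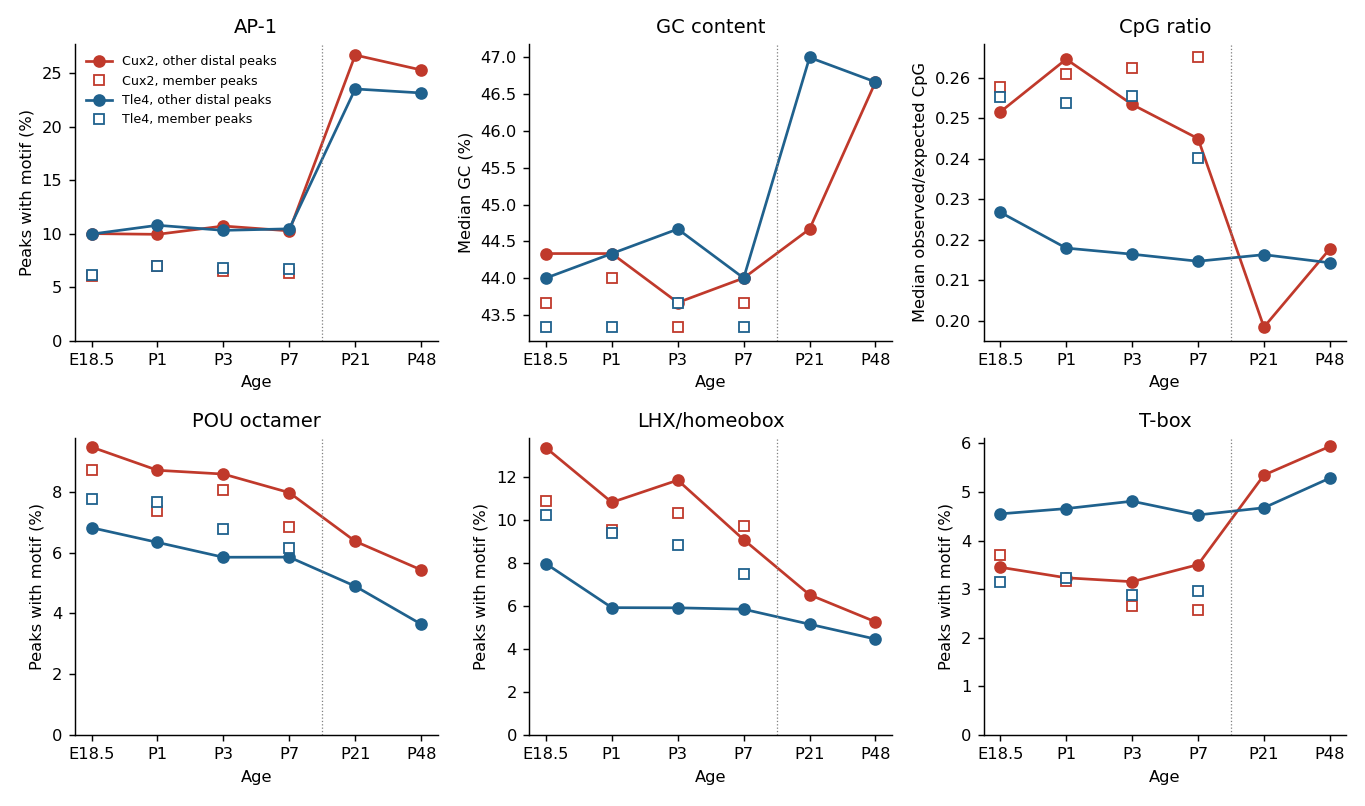
Values by age (horizontal axis) for 6 sequence features of distal peaks outside the members (filled circles and lines, Cux2 red, Tle4 blue) and of member peaks in the early lists (open squares). The dotted line separates early from late ages, and the GC and CpG axes do not start at 0. AP-1 shares of other distal peaks lie at 9.93% to 10.8% in early lists and 23.2% to 26.7% in late lists, with member peaks below both.

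Of the members, 1216 (69.6%, 67.4 to 71.8) lay within 100 kb of a protein-coding TSS, close to the 69.2% of all distal regions. Their nearest genes numbered 1110, of which 1020 had 1 member, 78 had 2 and 12 had at least 3. Nearness does not show which gene a region acts on.

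Kif6, which encodes a kinesin motor protein, had the most members. Its 5 members lay from chr17:49871523-49872500 to chr17:50075103-50075674, among 20 distal regions nearest to it, 4 in introns and 1 between genes. All were present in 7 or 8 early lists, with median fold enrichments of 8.86 to 11.3. Hsd17b12, an enzyme of fatty acid elongation, had 4 members of 10 distal regions, and Lrrc16a, which encodes a regulator of actin capping, had 4 of 20. With 3 members each followed Cga, the shared subunit of the glycoprotein hormones, Grxcr1, Odz2, a teneurin adhesion protein, Arhgap24, Zbtb10, Gas7 and Tbcel. Dync1i1 and Frmd4a, also with 3, ranked after them.

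The 10 members of highest rank differed widely in their distance to a gene. The strongest by mean percentile rank (95.8) was the intergenic region chr1:164545589-164546074, 13040 bp from Gm5705, with fold enrichments of 18.6, 26.2, 27.7 and 19.2 in the Cux2 lists from E18.5 to P7 and 17.2, 17.0, 18.52 and 14.01 in the Tle4 lists. It was highest in Cux2 CPNs at P1 and P3 and lowest in Tle4 CThPNs at P7. Parts of the sequence of its window recur within the window, and the part of repeats in its rank was not tested. Next were chr12:28630057-28630880 (rank 94.9), 601 kb from Dcdc2c, and chr12:9958871-9959841 (94.5), 378 kb from Osr1. Iqsec1, an activator of ARF GTPases, held the member chr6:90696202-90697120 in an intron, with fold enrichments of 13.3 to 20.7 at E18.5 to P3 and no peak at P7 in either class. The member chr7:38869588-38870526, 13.9 kb from the cyclin gene Ccne1, was CpG-rich, with a GC content of 70.0%.

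Syp, which encodes the synaptic vesicle protein synaptophysin, was the one gene of the lists below with a member among the 10 of highest rank (87.6). The member chrX:7225801-7226436 overlaps an exon of the gene, 4.77 kb from the nearest annotated Syp start site. Its fold enrichment was 20.0, 20.7, 23.1 and 11.5 in Cux2 CPNs from E18.5 to P7 in order of age, and 19.7, 15.5, 13.7 and 10.3 in Tle4 CThPNs. Both classes were lowest at P7, and the nearest late peak was 8379 bp away. The start sites of Syp had a promoter peak in all 8 early lists and 1 late list. The paper names Syp among the genes of its shared-late expression clusters, which were formed from RNA and not from open chromatin.

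**Figure D5:**
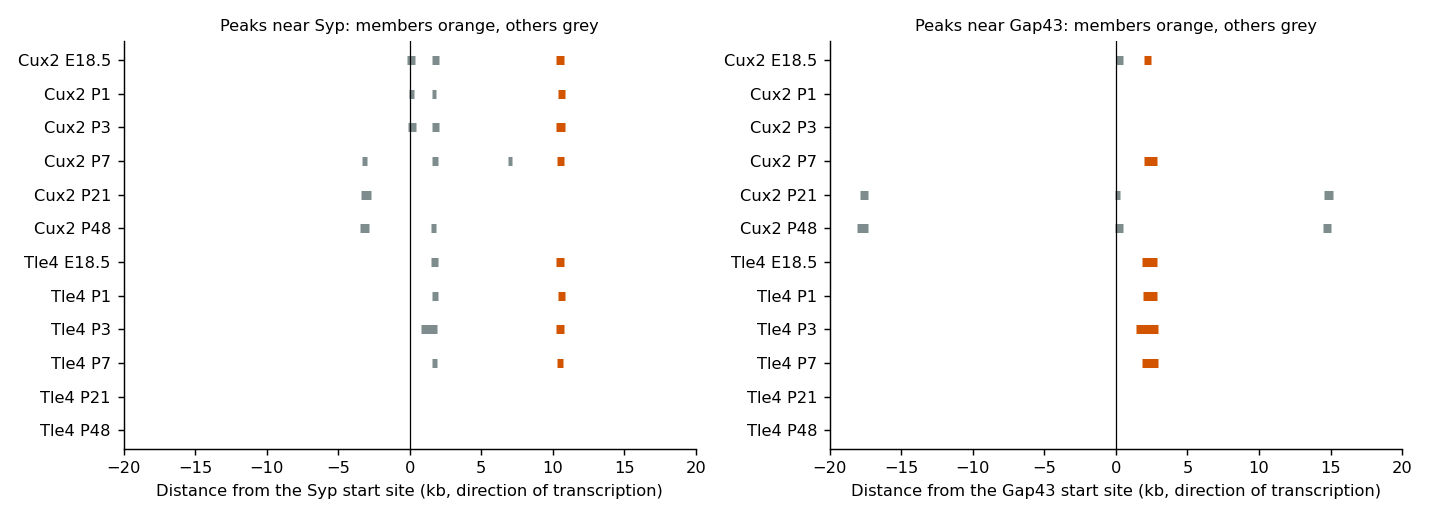
Peaks of the 12 lists (rows) within 20 kb of the start site of Syp (left) and Gap43 (right), against distance in kb in the direction of transcription, members in orange and other peaks in grey. The Syp member is present in all 8 early lists and the Gap43 member in 6 (median fold enrichment 5.63), and neither has a late peak. The plotted Syp start site is not the one nearest to the member, which begins 10204 bp from it.

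Of the growth cone and cytoskeleton list, 4 of 30 genes were nearest to 6 members, 0.344% of members against 0.236% of distal regions. Gap43, a growth cone protein, had a pair of them. The stronger, chr16:42269147-42270072, in an intron, had fold enrichments of 17.1, 15.3, 11.5 and 8.15 in Cux2 CPNs from E18.5 to P7 and 14.04, 13.7 and 10.8 in Tle4 CThPNs from E18.5 to P3, with no peak at P7. Its values were lower at each later age in both classes. The median over all members also fell in Cux2 CPNs, at 10.39, 10.27, 9.6 and 8.75 from E18.5 to P7. In Tle4 CThPNs that median was 10.39, 10.35 and 9.57 from E18.5 to P3, and 10.04 at P7. For shared-early distal regions with a late peak, the medians from E18.5 to P7 were 10.98, 11.12, 10.47 and 9.65 in Cux2 CPNs. In Tle4 CThPNs they were 10.7, 10.76, 9.73 and 10.21. Stmn4, a stathmin that binds tubulin, also had a pair, and the stronger, chr14:66996257-66997700, went from 17.5 at E18.5 to 8.68 at P7 in Cux2 CPNs and from 9.64 at E18.5 to 8.29 at P3 in Tle4 CThPNs. Kif5c, a kinesin, and Dpysl5, a collapsin response mediator, had 1 each.

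Of the early neuronal transcription factors, 6 of 36 genes were nearest to 1 member each, 0.344% of members against 0.362% of distal regions. They were Sox4, Nhlh1, Id2, Myt1l, Eomes and Zbtb18, the last listed in the annotation as Zfp238. The Sox4 member, chr13:28948887-28949789, lay 93.2 kb from the nearest annotated start site of this SoxC factor gene and was present in all 8 early lists. Its fold enrichment was 13.8, 10.9, 7.97 and 8.57 in Cux2 CPNs and 13.03, 10.45, 7.31 and 8.14 in Tle4 CThPNs at the 4 early ages. Both classes were highest at E18.5 and lowest at P3, and 3 members lay within 250 kb of Sox4. The Eomes member, chr9:118364253-118365133, 22.2 kb from this T-box gene of intermediate progenitors, went from 16.2 at E18.5 to 8.96 at P3 in Cux2 CPNs and had no P7 peak in either class. The Nhlh1 member, chr1:173976958-173977549, 10.2 kb from this neuronal helix-loop-helix gene, was present in 7 lists, with a median fold enrichment of 9.6.

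Of the axon guidance genes, 10 of 49 had 1 member each, 0.573% of members against 0.507% of distal regions. They were the Eph receptors Epha3, Epha4 and Ephb3, the ephrins Efna5 and Efnb2, the semaphorins Sema5a, Sema6d and Sema7a, the semaphorin receptor Plxna2 and the Slit receptor Robo3. The Efna5 member, chr17:63170235-63171310, was in 7 early lists and the others in 5 or 6. Of the synapse and mature neuron genes, 7 of 43 were nearest to 8 members (0.458% against 0.391%), namely Camk2b with 2 and Camk2a, Homer1, Kcna1, Kcnv1, Syn2 and Syp with 1 each. The shares of all these lists lay close to those of all distal regions, with 95% intervals that included them.

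The lists of cell-type markers were shorter than the lists above and gave few members. Each share had a Wilson interval that included the share of all distal regions. The pyramidal neuron markers gave 2 (0.115% against 0.0768%), both near Tle4, and the stronger, chr19:14755283-14756396, had fold enrichments of 12.9 to 15.6 in Cux2 CPNs and 12.3 to 17.2 in Tle4 CThPNs, with overlapping ranges. The interneuron markers gave 2 (0.115% against 0.0503%), near Vip and Npy. The Vip member was present in all 8 early lists, with 7.4 to 14.2 in Cux2 CPNs and 8.81 to 12.5 in Tle4 CThPNs. The progenitor and glial genes gave 1, near the glutamate transporter gene Slc1a3 (0.0573% against 0.177%), and the microglial and vascular markers gave 0 of 1746, which allows a share of up to 0.22% by the Wilson interval (0.0168% of distal regions). Of the fixed genes, Sox11, Apc2, Nefm and Cux2 had no member within 250 kb, and Egr3 had its nearest member 164 kb away.

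Some genes were nearest both to members and to shared-late regions. Of the 1110 genes nearest to a member, 54 (4.86%) were also nearest to a shared-late distal region, against 3.26% of the 12625 genes nearest to any distal region. These 54 were 13.1% of the 411 genes with shared-late regions, and members were near 8.79% of the 12625 genes. Genes with more distal regions can hold both kinds more easily, and this was not adjusted for. At Chchd3, a mitochondrial protein gene, 2 members of 7 early lists each and 1 shared-late region with fold enrichments of 9.31 to 17.5 in the late lists were all intronic. Arhgap26, Ccbe1, Dlg2, which encodes a postsynaptic scaffold, and Itpr1, a calcium release channel of the endoplasmic reticulum, also had 2 members and 1 shared-late region. At Dlg2 all 3 were intronic, and the member chr7:99251321-99251837 lay 6683 bp from the nearest late peak. Dip2c and Mycbp2 had 1 member and 2 shared-late regions each. The other genes in this group, Gtf2e1, Magi2 and Sel1l2, had 1 of each.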

How the data were processed

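ATAC-seq was measured in 24 samples (2 classes, 6 ages, 2 replicates). Following the paper, the authors mapped reads to NCBI37 (mm9) using Bowtie2, dropped duplicates (Picard), and used MACS2 for peaks, keeping those that passed an irreproducible discovery rate filter. Whether read ends were shifted for transposase binding is not given in the sources used here. The deposited lists, 1 per group with replicates pooled, give positions and a summit offset, a score, the fold enrichment as a ratio, and the -log10 p-value of each peak. They hold no counts. The paper states a target depth per library, and the reads behind each list are not given in them.

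Peaks on chromosomes 1 to 19, X and Y (292934 of 292994) that overlapped by 1 bp or more were merged. TSSs (95458), exons and protein-coding genes came from GENCODE vM1 on NCBIM37, and coordinates are 1-based. A region belonged to the nearest protein-coding gene within 100 kb. Sequence windows of 300 bp were centred on the summit of the strongest peak of a region, or of each peak in the list tests, and 23 motifs were searched on both strands. Longer motifs (NFI, MEF2, CTCF, RFX and NRF1) are given by name alone. The share of all distal regions with a motif is the background. Samples were grouped by their titles.

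Stage differences used exact permutation tests over lists. Shares carry 95% Wilson and densities exact Poisson intervals, which cover counting error only. Lists at different ages are the only repeats. The members, motifs, gene lists and names were chosen with earlier results of these data known. Named were the 10 members of highest mean percentile rank of fold enrichment, the 10 genes with most members, list genes with a member, 8 fixed genes, and the 10 genes with most members and shared-late regions together. Older symbols were matched through RefSeq names. Scripts (Python 3.11.15, NumPy 2.4.6, pandas 2.3.3, SciPy 1.17.1) were tested on simulated data. Alternatives changed the list length, thresholds, window, annotation and lists used.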

Additional observations from a re-analysis of the deposited data

Results flagged for a closer look

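In 28 groups of 4 early lists tested, 2 had a list far from the others, against about 1 in 20 groups by chance. The median GC content of member peaks in the early Tle4 lists was 43.7% at P3 and 43.3% at the other ages. The median CpG ratio of member peaks in the early Tle4 lists was 0.24 at P7, below the other ages.

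For 3 of 25 sequence features of the distal peaks outside the members, the late minus early difference was not equal in the classes by an unadjusted p under 0.05 (exact permutation over stage labels within classes). The difference in Cux2 CPNs minus that in Tle4 CThPNs (exact permutation tests) was -0.29 points for RFX sites (p = 0.00444, adjusted p = 0.111), -1.38 points for SP/KLF letters (p = 0.0133, adjusted p = 0.167) and 1.64 points for TEAD letters (p = 0.0267, adjusted p = 0.222). None passed after adjustment over the 25 features.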

How the results depend on the processing

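No paired analysis was possible because the replicates are pooled in the deposited lists. Of 397 values computed under an alternative, 304 stayed on their side of the threshold or within their interval, 42 moved, 47 lost and 4 gained a call, and 0 reversed. The number of members, 1746, became 276 with the same number of strongest peaks (6538) in every list, 994 at a common -log10 p of 22.0, 926 with 3 early lists of each class and 2742 with at most 1 late list. It became 4257 with late absence judged on the Tle4 lists alone, an alternative chosen after seeing the data. Leaving out each list in turn gave 1422 to 2336. The AP-1 share of members was 9.06% with equal list lengths (20.6% of all distal regions), 3.95% in 200-bp windows (15.2%), 10.6% in 500-bp windows (23.4%) and 8.36% with the Tle4 late lists alone (18.3%), and 5.87% to 7.06% with a list left out. The CTCF share of members, 5.1%, was 2.54% with equal list lengths. Shares by window grow with its length by construction. Genes nearest to members fell to 202 with equal list lengths. The late minus early difference in AP-1 stayed between 13.9 and 18.9 points in the other alternatives, and between 13.98 and 14.7 with a list left out. GC content differed by 1.75 to 2.58 points and the CpG ratio by -0.026 to -0.0202 with a list left out, and the CpG call was lost at the common -log10 p (-0.034, adjusted p = 0.0707) and in 200-bp windows (-0.0247, adjusted p = 0.0855, exact permutation tests). The motifs called, 8, were 0 without Cux2 P21, Cux2 P48 or Tle4 P48 and 6 to 9 without any other list. With a late list left out the smallest possible p is 0.0133. Counts of members depend on list length, and read depth by list cannot be assessed.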
